A study of Rattus norvegicus with 8 samples.

Results

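The 8 genes described here encode the tissue inhibitors of metalloproteinases (Timp1, Timp2, Timp3 and Timp4) and 4 proteins of plasminogen activation (Plat, Plau, Plaur and Serpine2). They were chosen by name, with earlier results of these data known, and matched by symbol to the 37209 genes of the count table. All 8 had a row, 7 had enough counts for a test among the 14359 genes tested, and Timp1 was listed at 0 in every library. RNA of carotid arteries from Sprague-Dawley males, which weighed 400 g on average, was sequenced. In the injured group (n = 4), the left carotid artery had been injured with a balloon dilatation catheter and was taken 2 weeks later. The control group (n = 4) consisted of the undamaged right carotid arteries, so that a control is the other vessel of an operated animal and no artery of an unoperated animal was included. The labels give no genetic change and no drug for either group. They number the arteries 1 to 4 in each group without saying that equal numbers are the same rat.

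TIMPs are secreted proteins that occupy the active site of matrix metalloproteinases, the enzymes that cut collagen, elastin and other matrix proteins. In the plasminogen system, the proteases uPA (gene Plau) and tPA (Plat) cut plasminogen to plasmin, which degrades fibrin and can activate some metalloproteinases. uPA is held at the cell surface by its receptor uPAR (Plaur), and serpins such as protease nexin-1 (Serpine2) block these proteases. Both systems are long known from injured arteries, where smooth muscle cells move through matrix to form a neointima.

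The library totals lay between 11459632 and 16658089 counts, and 3 counts, the lowest level taken as detectable, corresponded to 0.168 to 0.246 counts per 1000000 library counts (CPM, with the counts of the genes tested, scaled by TMM, as library size), which covers counting error only. The protocol text names another tissue, whereas the smooth muscle markers Acta2, Myh11, Tagln, Cnn1, Smtn, Lmod1 and Des together reached 17364 to 50365 CPM in the controls and 10515.5 to 16565 CPM after injury, with 4 of 7 called lower. The 7 macrophage markers in the table were all called higher, with summed levels of 136 to 174.5 CPM in the controls and 605 to 811 CPM after injury. Of 5 skeletal muscle markers 3 were called higher, among them Myh4, at 0.141 CPM in the controls and 35.1 CPM after injury, and Mylpf, at 0.142 and 41.6 CPM. The summed level of the 5 was 82.6 to 252 CPM in the controls and 203 to 777 CPM after injury. The 7 sympathetic neuron markers summed to 9619.9 CPM in control artery 4 and 2367 CPM in injured artery 3, against 6.73 to 10.9 CPM in the other controls and 20.4 to 158 CPM in the other injured arteries. Control artery 4 and injured artery 3 therefore stood apart, and results were also computed without them. In whole arteries, fewer cells of a type and less RNA per cell cannot be told apart.

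The genes of this group that changed are shown first by their promoters, because Plau and Plaur were higher and Timp3 and Timp4 lower after injury. Each sequence covers the 250 bases before the start site in RefSeq's GRCr8 table, which holds 7 of the 8 genes (not Plat), and is written 5′ to 3′ along the gene. Capitals mark the AP-1 motif TGANTCA and the GC box GGGCGG or its reverse complement. The windows are chr15:3511988-3512237, minus strand (Plau), chr1:89181113-89181362, plus strand (Plaur) and chr7:19459559-19459808, minus strand (Timp3). The window of Timp4 lies partly within the annotated span of the gene and is not shown.
Plau: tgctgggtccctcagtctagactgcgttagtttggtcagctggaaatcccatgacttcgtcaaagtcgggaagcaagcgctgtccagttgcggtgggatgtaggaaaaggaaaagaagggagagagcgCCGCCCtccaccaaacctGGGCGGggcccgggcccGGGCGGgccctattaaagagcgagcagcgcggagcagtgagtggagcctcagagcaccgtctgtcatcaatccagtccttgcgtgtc
Plaur: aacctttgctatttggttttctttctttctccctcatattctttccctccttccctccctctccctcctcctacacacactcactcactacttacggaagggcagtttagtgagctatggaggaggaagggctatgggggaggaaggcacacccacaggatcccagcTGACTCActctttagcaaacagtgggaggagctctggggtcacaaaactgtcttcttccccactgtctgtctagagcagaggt
Timp3: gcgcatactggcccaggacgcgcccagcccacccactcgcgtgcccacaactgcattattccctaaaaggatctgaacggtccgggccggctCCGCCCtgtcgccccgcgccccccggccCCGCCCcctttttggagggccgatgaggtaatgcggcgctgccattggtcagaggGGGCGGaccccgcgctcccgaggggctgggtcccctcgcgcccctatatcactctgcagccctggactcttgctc

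On both strands, Plaur held 1 AP-1 match, which began 83 bases before the start site, and Plau and Timp3 held 3 GC boxes each. GC boxes were not limited to called genes. Serpine2 and Timp2, which were not called, held 6 and 1, and Timp1, which was not tested, held 1. Over all 33469 promoter windows of this length, 6.34% held an AP-1 match and 30.5% a GC box. The TATA motif TATAAA (12.9% of all windows) and the CArG box (1.5%) had no match in the windows of Plau, Plaur, Timp3 and Timp4. The window of Timp4, which lies partly within the gene, held none of the 4 motifs. No matches overlapped each other in the windows shown. These matches are a description of the letters, and binding of a factor was not measured.

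Among 7 genes tested, Plau and Plaur were called higher after injury, whereas 8.31% of all genes tested were, and Timp3 and Timp4 were called lower, against 2.57% of all genes. A gene was called at a false discovery rate (FDR) under 0.05 together with a fold change above 2. Plat passed the FDR but not the fold limit, and Timp2 and Serpine2 passed neither. The median log2 fold change of the 7 genes was 0.19, compared with -0.06 over all genes tested. The CPM values of injured and control arteries did not overlap for 3 of the 7 genes, Plat, Plau and Plaur, all higher after injury, compared with 23.7% of all genes in either direction.

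**Figure D1:**
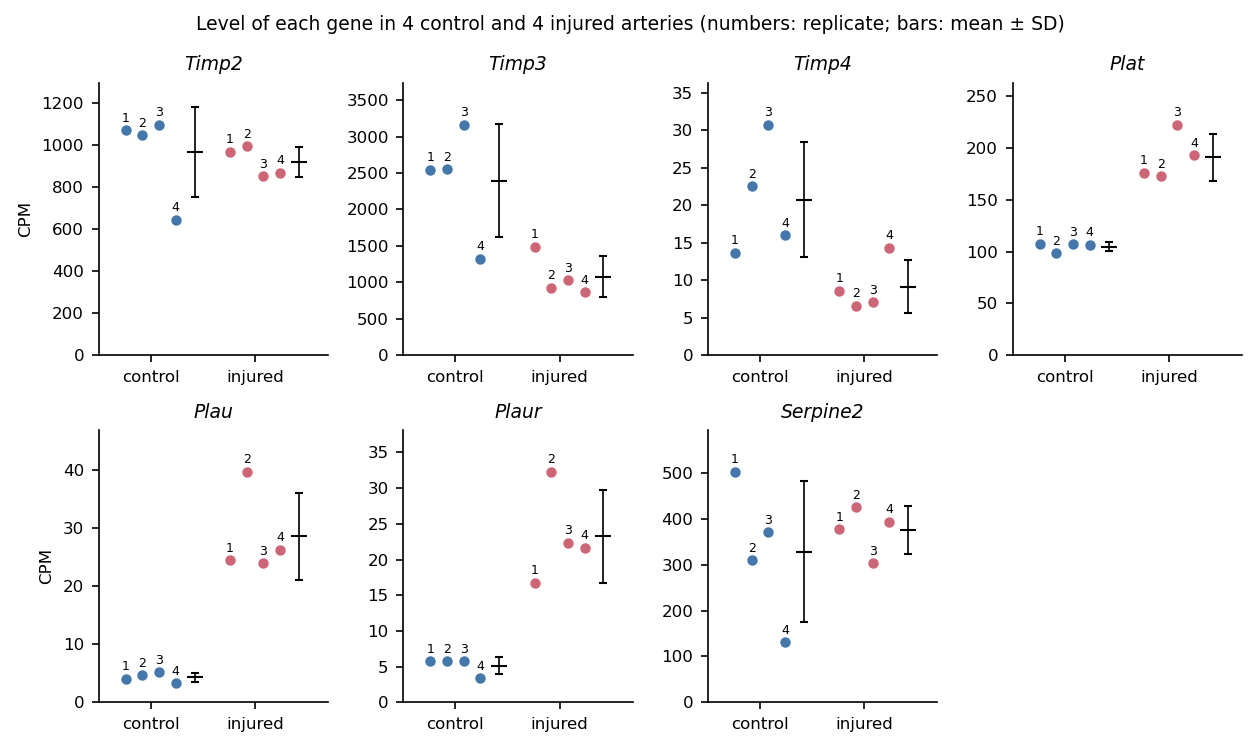
CPM of 7 genes (linear axes from 0) in control (blue) and injured (red) arteries, with the replicate number beside each point and the mean ± SD (n = 4) beside each group. All injured arteries lie above all controls for Plat, Plau and Plaur, while for Timp3 control artery 4, at 1324.5 CPM, lies below injured artery 1, at 1489 CPM.

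Timp1 encodes the TIMP that is typically induced in injured tissue and binds the proform of MMP-9. Its row held 0 counts in all 8 libraries, and no synonym of the gene had a row. Its neighbours on chromosome X were at 0 as well, including Araf, Elk1, Uxt and Uba1, which are used by nearly every cell. Only 14 of 609 protein-coding genes that GRCr8 places on chromosome X and that the table lists had a count in any library, or 2.3%. On the 20 autosomes this share was 84.9% to 95.4%. The zeros of Timp1 were thus shared by nearly the whole chromosome, and no level of Timp1 can be read from these data. The other members lie on chromosomes 1, 4, 7, 9, 10, 15 and 16.

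Timp3 encodes the TIMP that binds to the extracellular matrix and also inhibits ADAM17 and aggrecan-cutting ADAMTS enzymes. The control arteries 1 to 4 had 2545, 2551, 3165 and 1324.5 CPM, and the injured arteries had 1489, 927, 1028 and 866 CPM. Without control artery 4 the groups would be fully separated. The mean fell from 2396 ± 771 CPM to 1077.5 ± 282.5 CPM (SD, n = 4). On the log2 scale this was -1.15 with a standard error of 0.30 and a 95% interval of -1.84 to -0.47, and the adjusted p was 0.0335 (edgeR, quasi-likelihood F, with p adjusted by Benjamini and Hochberg over all genes tested). Relabelling the 8 arteries in all 70 ways gave an exact permutation p of 0.0571 for log2 CPM, two-sided, where 0.0286 is the smallest value that 4 against 4 allows. The call lies close to the threshold, since it was kept in 2 of the 8 edgeR fits that left out 1 artery each, with a log2 fold change of -1.36 to -1.0 and an adjusted p of 0.00225 to 0.113. The call was lost without control artery 1, 2 or 3 or injured artery 2, 3 or 4, and the lowest p came without control artery 4. Of the smooth muscle markers, Acta2 (-1.34), Tagln (-1.36), Myh11 (-1.72) and Cnn1 (-1.69) were called lower as well. Smtn (-1.04), Lmod1 (-0.84) and Des (-0.08) were not called. The fibroblast markers Dcn (-1.15) and Pi16 (-1.56) and the endothelial marker Vwf (-1.65) were also called lower. Fibroblast Dpt (2.03) and endothelial Cdh5 (1.06) and Kdr (2.03) were called higher. The part of these cell types in the falls of Timp3 and Timp4 was not tested.

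Timp4 encodes the TIMP best known from the heart and vessels. Its control values were 13.7, 22.6, 30.8 and 16.1 CPM, and the injured arteries had 8.61, 6.60, 7.08 and 14.3 CPM. Injured artery 4 lay above control artery 1, so that the groups overlapped by this 1 pair. The mean fell from 20.8 ± 7.65 to 9.15 ± 3.55 CPM (SD, n = 4), a change of -1.18 on the log2 scale (standard error 0.34, 95% interval of the change -1.96 to -0.40, adjusted p = 0.0476 in edgeR's test). The exact permutation p was 0.0571 (two-sided). Timp4 was called in 3 of the 8 edgeR fits without 1 artery, with an adjusted p of 0.0246 to 0.132, and was lost without control artery 2 or 3 or injured artery 1, 2 or 3. In GRCr8 the gene lies within the span of Syn2, a synaptic vesicle gene, which had 11117 counts in control artery 4 and 3495 in injured artery 3 but at most 162 elsewhere. Timp4 had 231 and 126 counts in those libraries, within the range of the others (91 to 444 counts). Timp3 lies within the span of Syn3, which had at most 136 counts.

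Timp2, which inhibits metalloproteinases and also helps MT1-MMP (Mmp14) to activate pro-MMP-2, had 1069, 1047, 1096 and 644 CPM in the controls and 968, 994, 852 and 867 CPM after injury. The injured values lay within the control range only because control artery 4 was low. The log2 fold change of Timp2 was -0.07 (standard error 0.19, 95% interval -0.51 to 0.38, adjusted p = 0.844 in edgeR's test). Without control artery 4 the groups would not overlap, and the change was -0.22 (adjusted p = 0.125 in edgeR's test). With library totals in place of TMM factors the change was 0.12. That scaling moved the median of all genes by 0.176 on the log2 scale, and with it Timp3 had -0.96 (adjusted p = 0.0508) and Timp4 -1.0 (adjusted p = 0.0804), so neither was called.

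The composition of the TIMP reads does not depend on scaling between libraries. Of the reads on the 4 TIMP genes in each artery, Timp3 held 70.2%, 70.5%, 73.7% and 66.8% in the controls and 60.4%, 48.1%, 54.5% and 49.6% after injury. Every injured artery had a lower Timp3 share than every control, control artery 4 included. The mean fell from 70.3% ± 2.85 to 53.1% ± 5.57 (SD, n = 4), and the exact permutation test gave p = 0.0286 (two-sided), 0.0477 after Benjamini-Hochberg adjustment over 5 shares. The difference was -17.1 percentage points, and without control artery 3 it was -16.0 with an exact permutation p of 0.0571. The Timp2 share took up the difference, with 29.1% ± 2.82 in the controls and 46.4% ± 5.47 after injury (SD, n = 4, same exact p). The Timp2 and Timp3 shares nearly mirror each other, so the adjustment over 5 shares counted the same change more than once. The planned share of Timp1, 0 in every artery, was not tested and not counted in the adjustment. The adjusted value under 0.05 rests on both points. Timp4 held 0.632% ± 0.186 and 0.472% ± 0.232 of these reads (SD, n = 4, exact permutation p = 0.343, two-sided). The shares count reads, not molecules per transcript length, and they lack Timp1.

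**Figure D2:**
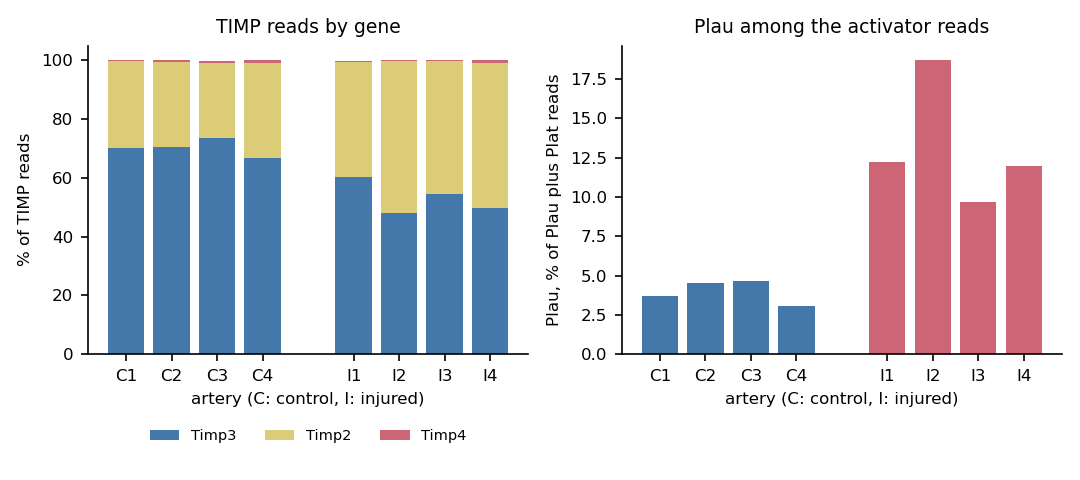
Left, percent of the reads on the TIMP genes held by Timp3, Timp2 and Timp4 in each control (C1 to C4) and injured (I1 to I4) artery. Right, Plau as percent of the Plau plus Plat reads, which lies between 3.04% and 4.64% in the controls (blue) and between 9.7% and 18.7% after injury (red).

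Plau, the gene of uPA, had the largest change of the group. The controls had 4.11, 4.67, 5.20 and 3.34 CPM, and the injured arteries had 24.5, 39.7, 23.9 and 26.3 CPM. Every injured artery was above every control, and injured artery 2 was the highest. The mean rose from 4.33 ± 0.798 to 28.6 ± 7.47 CPM (SD, n = 4), which is 2.72 on the log2 scale (standard error 0.23, 95% interval 2.19 to 3.25, adjusted p = 0.000391 in edgeR's test). Plau was called in all 8 fits without 1 artery (2.52 to 2.82) and without both libraries rich in neuron markers (2.69).

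Plaur, the receptor that holds uPA at the cell surface, had 5.76, 5.74, 5.75 and 3.41 CPM in the controls and 16.8, 32.3, 22.4 and 21.7 CPM after injury. The groups were separate, and injured artery 2 was again the highest. The mean rose from 5.17 ± 1.17 to 23.3 ± 6.51 CPM (SD, n = 4), which is 2.17 on the log2 scale (standard error 0.26, edgeR adjusted p = 0.00148). It was called in all 8 fits without 1 artery (1.97 to 2.30), and without control artery 4 it was 2.01. The summed macrophage markers, at 811 CPM, were also highest in injured artery 2 and rose in every injured artery. Injured artery 1 had the next highest sum, 715 CPM, but the lowest Plaur value of the injured arteries. The part of macrophages in the rise of Plau and Plaur was not tested.

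Plat, the gene of tPA, varied little among the controls. It had 107.5, 98.3, 106.9 and 106.5 CPM in the controls and 176.1, 173.0, 222.6 and 192.9 CPM after injury. The groups did not overlap, and control artery 4 lay with the other controls. The mean was 104.8 ± 4.38 CPM in the controls and 191 ± 22.7 CPM after injury (SD, n = 4), a 1.82-fold difference with a log2 fold change of 0.87 (standard error 0.11, 95% interval 0.60 to 1.13) and an edgeR adjusted p of 0.00206. It therefore passed the FDR but not the required fold. With library totals only, the log2 fold change was 1.04 and Plat was called. In GRCr8 its span overlaps that of Ikbkb at one end, which had 698 to 1320 counts.

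Plau also rose relative to Plat. Of the Plau plus Plat reads, Plau held 3.68%, 4.54%, 4.64% and 3.04% in the controls and 12.2%, 18.7%, 9.7% and 12% after injury. The mean share rose from 3.97% ± 0.76 to 13.1% ± 3.85 (SD, n = 4), with an exact permutation p of 0.0286 (two-sided) and 0.0477 after adjustment over the 5 shares. That adjusted value also rests on counting both of the mirrored Timp2 and Timp3 shares and on leaving out the Timp1 share. The difference of 9.16 percentage points stayed between 7.32 and 10.3 when any 1 artery was left out.

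Serpine2, which encodes protease nexin-1, an inhibitor of thrombin, uPA and plasmin, had 502, 309, 371 and 132 CPM in the controls and 378, 425, 302.5 and 394 CPM after injury. The count table also holds a row under 1 synonym of Serpine2, which was not used. For Serpine2, control artery 4 was the lowest of all arteries, and the injured values lay within the control range. The log2 fold change was 0.19 (standard error 0.35, 95% interval -0.62 to 1.00, adjusted p = 0.751 in edgeR's test) and -0.08 without control artery 4. Relative to its target activators, Serpine2 held 72.0% ± 12 of the Serpine2, Plau and Plat reads in the controls and 62.8% ± 5.25 after injury (SD, n = 4, exact permutation p = 0.229, two-sided). Without control artery 4, whose share of 54.6% was far below the 75.0% to 81.8% of the others, the difference was -15.1 percentage points with an exact permutation p of 0.0286, the smallest that 4 against 3 allows. Without control artery 1 it was -5.97 percentage points, with an exact permutation p of 0.429.

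**Figure D3:**
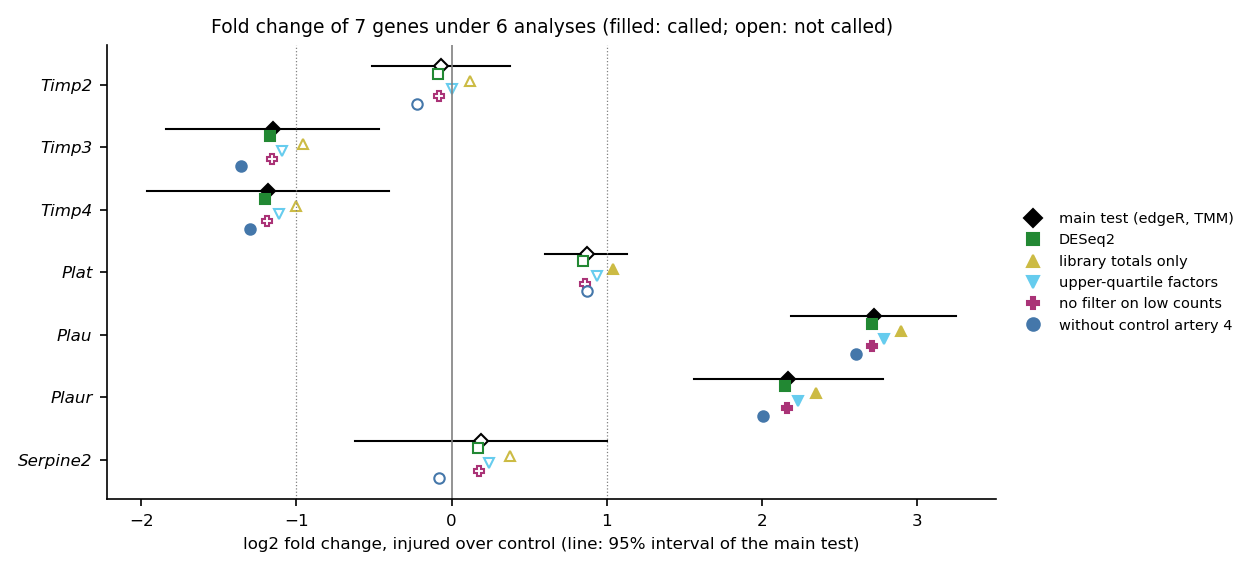
log2 fold change of injured over control arteries for 7 genes under 6 analyses, with the 95% interval of the main edgeR test as a line, filled symbols for calls and dotted lines at a fold of 2. Plau and Plaur are called in all 6, and Timp3 and Timp4 are called in 3 of them (the main test, DESeq2 and without control artery 4).

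The rest of the plasminogen system was read from a list of 23 further genes. Of these, 14 had enough counts, and 2 were called higher (against 8.31% of all genes) and 0 lower in edgeR's test. In that test 6 of the 14 had an unadjusted p under 0.05, against 4472 of all 14359 genes tested. DESeq2, which also fitted genes with fewer counts, called 5 of 21, against 2150 of 23447 over all genes. The median log2 fold change was -0.16. The 2 genes called were Vtn and St14. Vtn, which encodes vitronectin, a matrix protein that binds uPAR, rose from 4.71 ± 1.81 to 16.8 ± 3.03 CPM (SD, n = 4, log2 fold change 1.84, standard error 0.32, adjusted p = 0.00654 in edgeR's test). St14, the gene of matriptase, a membrane protease able to activate pro-uPA, rose from 3.64 ± 1.21 to 13.4 ± 2.13 CPM (SD, n = 4, log2 fold change 1.88, standard error 0.27, adjusted p = 0.00283 in edgeR's test). Both genes were called in all 8 fits without 1 artery.

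The control values of Vtn ranged from 2.38 to 6.74 CPM and the injured values from 12.4 to 18.8 CPM. Those of St14 ranged from 2.57 to 5.19 CPM and from 11.5 to 16.04 CPM, so neither gene overlapped between the groups. Lrp1, an abundant gene that was not called and encodes an endocytic receptor that clears uPA and tPA bound to their inhibitors, had 2076 ± 799 CPM and 1911 ± 341 CPM (SD, n = 4, log2 fold change -0.12, 95% interval -0.88 to 0.64). Plasminogen itself (Plg) had 1.88 to 3.60 CPM in the controls and 1.31 to 1.79 CPM after injury, without overlap. With 18 to 50 counts per library, Plg was not called (log2 fold change -0.75, standard error 0.27, edgeR adjusted p = 0.0951). Serpinf2, an inhibitor gene of this list, was higher without overlap, at 0.481 ± 0.481 and 2.04 ± 0.633 CPM (SD, n = 4). It was called by DESeq2 but not by edgeR (log2 fold change 2.05, standard error 0.65, edgeR adjusted p = 0.0643). Of the 14 genes tested, 4 did not overlap between the groups, 3 of them higher, compared with 23.7% of all genes tested. Cpb2 and Serpina5 were listed at 0.

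**Figure D4:**
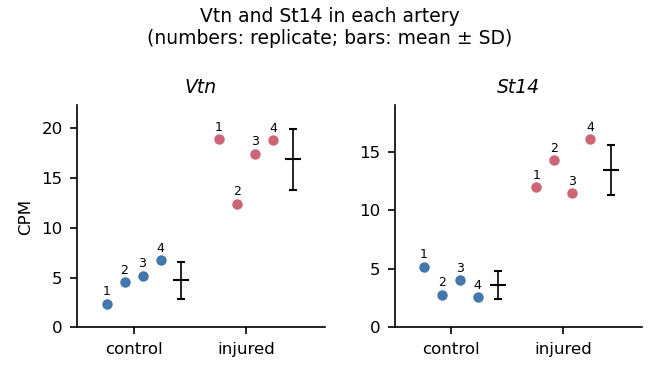
CPM of Vtn and St14 (linear axes from 0) in control (blue) and injured (red) arteries, with replicate numbers and the mean ± SD (n = 4). All injured values lie above all control values for both genes.

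A list of 15 genes held metalloproteinases of the MMP, ADAM and ADAMTS families and their membrane-anchored inhibitor Reck. Of these, 14 were tested and 5 were called, all higher (against 8.31% of all genes), namely Mmp12, Mmp9, Adam12, Adamts4 and Mmp14, at 8.45, 7.26, 4.66, 2.59 and 1.28 on the log2 scale. The values of Mmp12 and Mmp9 depend on the prior count, since their controls were near 0. Mmp12, the macrophage elastase, had at most 3 counts in each control. Mmp14, the membrane protease that acts with Timp2, rose from 333 ± 121 to 808 ± 177 CPM (SD, n = 4, adjusted p = 0.0305 in edgeR's test) and was called in 2 of the 8 fits without 1 artery, those without control artery 4 and without injured artery 3. Mmp2 (log2 fold change 0.07) and Adamts1 (-1.06) were the most abundant uncalled genes. Reck had -0.90 (edgeR adjusted p = 0.0317), below the fold limit, and was called lower without control artery 4 (-1.09).

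**Figure D5:**
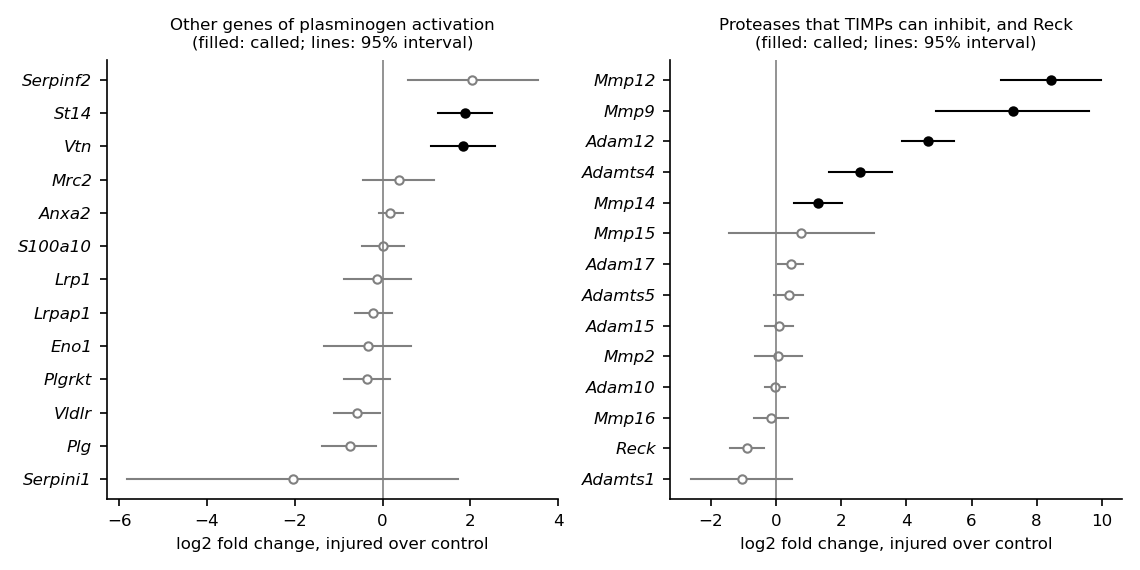
log2 fold change, injured over control, with its 95% interval for 13 further genes of plasminogen activation (left) and 14 genes of the protease list (right), with calls filled. Vtn and St14 are called on the left and Mmp12, Mmp9, Adam12, Adamts4 and Mmp14 on the right, and Serpini1 has the widest interval.

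For each called member, the genes with the most similar pattern were found by the root-mean-square difference of centred log2 CPM over the 8 arteries, among 12893 genes with an average log2 CPM above 1. Nearest to Plau were Fermt3 (0.14), an adhesion gene of blood cells, and Irf5 (0.15), an interferon regulatory factor. Nearest to Plaur was LOC103693389 (0.16). Nearest to Timp3 were Aldh6a1 (0.15), a mitochondrial dehydrogenase gene, and Dcn (0.16), the gene of the matrix proteoglycan decorin. Nearest to Timp4 were Proser2 (0.23) and LOC102553541 (0.26). The 8 points share the injury contrast and the library in which they were measured, so these values only describe likeness.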

How the data were processed

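mRNA of 4 injured and 4 contralateral carotid arteries had been sequenced. The authors deposited raw counts per gene symbol, without normalization, and the submitters' processing notes name HISAT2 2.0.4. The counting tool, genome build and strand setting are not given in the sources used here, so overlapping genes are uncertain. Samples were grouped by their source labels. Nothing says whether equal numbers are the same rat. The main test and the permutation test set the group difference against the spread between arteries. They treat the arteries as independent, although the controls are the other vessels of operated rats.

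The quasi-likelihood test of edgeR 4.0.16 (R 4.3.3), without a covariate, was fitted to the 14359 of 37209 genes that passed filterByExpr, with library sizes scaled by TMM. Genes were called at FDR < 0.05 and fold change > 2, the criteria of the study, whose DESeq was replaced by edgeR with DESeq2 1.42.0 as an alternative. Standard errors come from the F statistic, intervals from its degrees of freedom, and CPM use TMM factors. Log2 CPM for the exact permutation tests and the likeness measure had a prior count of 2. Read shares used counts. The tests were tried on simulated data with 200 genes changed 4-fold. Of these, edgeR recovered 61.5%, edgeR with the replicate block 42.5% and DESeq2 82%. DESeq2 made 53 false calls, whereas edgeR's main test made 6. A gene that was not called can therefore still have changed. Symbols were matched to chromosomes of GRCr8 for 20222 genes, and its coordinates were used for gene overlaps and RefSeq promoters.

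The members and lists were chosen with earlier results of these data known. Named are the 8 members, called genes and the 2 most abundant uncalled genes of each list, and the 2 most similar genes of each called member, of which 2 genes are not reported here. Plg, Reck, the cell type markers, Serpini1, Serpinf2, Cpb2, Serpina5, Mmp3, Mmp15 and the chromosome X neighbours were named after their values were seen. Alternatives were other scalings and filters, the FDR alone, a replicate block, 1 artery left out and, added after seeing the data, control artery 4 and injured artery 3 left out. Shares per transcript length were not run because no lengths were used here.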

Additional observations from a re-analysis of the deposited data

Results flagged for a closer look

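Dixon's ratio, the distance of an extreme artery from its neighbour over the range of its group, passed the 95% limit in 6 of 40 groups (n = 4 each). About 2 would pass by chance. The extreme was control artery 4 in 3 groups, each time as the lowest. Its ratio was 0.891 for Timp2 (644 CPM against 1047 in the nearest control), 0.991 for Plaur (3.41 against 5.74 CPM) and 0.839 for Mmp14 (153 against 377 CPM). It also had the most neuron marker reads, and their part in these values was not tested.

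Control artery 2 had a ratio of 0.892 for Plat, at 98.3 CPM against 106.5 in the nearest control. Injured artery 2 had a ratio of 0.851 for Plau, at 39.7 against 26.3 CPM. Injured artery 4 had a ratio of 0.932 for the share of Timp4 among the TIMP reads, at 0.819% against 0.375%.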

How the results depend on the processing

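Plau and Plaur were called under all 16 alternatives, with the same direction. Timp3 and Timp4 kept their direction under all 16 but were each no longer called in 10. The count of called members was 2 with upper-quartile factors, without a filter and with the replicate block, where Timp3 and Timp4 were lost, and 2 to 4 with 1 artery left out. Those 2 also lost their calls with library totals only, where Plat was gained. Both were kept with DESeq2, with RLE factors, without control artery 4 and without both libraries rich in neuron markers. Timp2 reversed to 0.12 with library totals only, and Serpine2 to -0.08 without control artery 4 (up to 0.46 without control artery 1), and neither was called. The cause was not tested.

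Over all genes, 1562 were called (1193 higher), 1007 with a minimum of 10 counts in each library, 2468 with the FDR alone, 2473 without control artery 4 and injured artery 3, and 1142 to 2398 with 1 artery left out, the highest without control artery 4. For the pathway list DESeq2 called 5 of the 21 genes it fitted, and 2 to 3 genes were called with 1 artery left out. For the proteases the count was 3 under that filter, which dropped Mmp9 and Mmp12, and 4 to 8 with 1 artery left out, where the fit without control artery 4 added Mmp3, Mmp15 and Reck. The difference in share ranged from 15.6 to 19.7 points for Timp2, -19.6 to -15.5 for Timp3, 7.32 to 10.3 for Plau and -15.1 to -5.97 for Serpine2 with 1 artery left out. Without control artery 3, Timp2 and Timp3 had 16.1 and -16.0 points with an exact p of 0.0571.

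With the replicate block, Mmp14 was lost. For the shares, the sign-flip test over 4 same-numbered pairs gave an exact p of 0.125, the smallest it allows, for the differences of 17.3 (Timp2), -17.1 (Timp3) and 9.16 points (Plau). Across genes, deviations from the group mean correlated between equal numbers at 0.301, 0.45, -0.52 and -0.416, and 3 of 8 arteries correlated best with their own number. The highest correlation, 0.784, joined control artery 4 and injured artery 3, the libraries rich in neuron markers. This check therefore cannot decide whether equal numbers are the same rat. The numbers were not taken as pairs because the labels do not say so. Counts under 3 per library were not detectable at this depth.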
